A study of Rattus norvegicus with 24 samples.

Results

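Transcripts of 7 genes that handle reactive oxygen or bind metal were followed in a pair of rat muscles at 3 ages: the glutathione peroxidases Gpx1, Gpx2 and Gpx3, the superoxide dismutases Sod1 and Sod2, catalase (Cat), and metallothionein 3 (Mt3). A gene was represented by every probe set of the array that the platform annotation gives to that symbol alone, which gave 7 of 4736 genes and 14 of 8740 probe sets once control probe sets were removed. All 7 genes matched RefSeq by their gene identifier. One muscle tissue was that of the eye, the extraocular muscles (EOM), and the other was a toe-lifting muscle of the hindlimb, the extensor digitorum longus (EDL), each taken from rats (Rattus norvegicus) at 6, 18 and 30 months. Tissue of 4 animals was pooled into each RNA sample, and 4 pools per muscle and age were hybridised to 24 Affymetrix U34 arrays in all. No group carried a treatment or altered allele in the labels, and the strain and sex of the rats, and whether EOM and EDL came from the same animals, are not given in the sources used here.

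Superoxide, a by-product of respiration, is turned into hydrogen peroxide by superoxide dismutases, and the peroxide is then removed by catalase or by glutathione peroxidases. Sod1 is the copper and zinc enzyme of the cytosol, and Sod2 is the manganese enzyme of the mitochondrial matrix. Gpx1 is the widely expressed intracellular selenoenzyme, Gpx2 is best known from the epithelium of the gut, and Gpx3 is secreted and circulates in plasma. Catalase sits in peroxisomes and is abundant in red cells. Mt3 is a small cysteine-rich protein that binds zinc and copper and was first described in brain. Some metallothionein genes are classically switched on by metals through metal response elements, and several antioxidant genes through antioxidant response elements. Whether Mt3 responds to metals was not tested here.

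The stretches just upstream of the start sites of Mt3 and Gpx2 are shown. These genes had the largest differences between the muscles, and letter matches to the elements named above lie in these stretches. Both are RefSeq sequences of the rat build GRCr8, 5′ to 3′ on the strand of the gene, and each ends on the base before the start site. Mt3 was read from chr19:10856081-10856330 and Gpx2 from chr6:101230034-101230283, both on the minus strand. Capitals mark matches, on either strand, to the metal response core (TGCACNC or TGCGCNC) in Mt3 and to the antioxidant response core (TGACNNNGC) in Gpx2.
Mt3: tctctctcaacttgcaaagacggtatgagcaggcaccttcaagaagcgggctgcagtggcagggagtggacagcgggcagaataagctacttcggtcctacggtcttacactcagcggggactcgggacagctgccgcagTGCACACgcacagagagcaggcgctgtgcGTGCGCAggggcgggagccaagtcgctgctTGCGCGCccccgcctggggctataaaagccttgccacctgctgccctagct
Gpx2: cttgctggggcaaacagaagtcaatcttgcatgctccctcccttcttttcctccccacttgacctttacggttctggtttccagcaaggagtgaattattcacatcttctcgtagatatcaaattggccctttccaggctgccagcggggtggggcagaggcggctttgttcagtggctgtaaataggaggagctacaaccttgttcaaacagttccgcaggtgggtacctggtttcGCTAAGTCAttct
In Mt3 the metal response core was found 3 times, with first bases 110, 81 and 51 bases before the start. At least 1 match in either spelling was present in 20.6% of 33469 rat promoters of the same 250 bases, and at least 3 matches in 1.17%. Mt3 also held a TATA box (TATAAA) 31 bases before the start, as did 12.9% of promoters. In Gpx2 the antioxidant response core lay 13 bases before the start on the opposite strand, and 10.1% of promoters held it. Sod2, the mitochondrial enzyme, held 1 such match, 35 bases before its start. The other 6 genes held no metal response core in these windows, whereas the CCAAT box (CCAAT), present in 34% of promoters, occurred 4 times upstream of Cat, as often or more in 0.565% of promoters. These are matches of letters in 1 window per gene.

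Each probe set gives 1 intensity per array, a brightness in arbitrary units that can be compared between arrays but not between probe sets. Array medians ranged from 89.7 to 136.8 units. Differences were tested on log2 intensities with limma over 5741 probe sets, of which 12 belonged to the 7 genes, and a difference was called when its Benjamini-Hochberg adjusted p was under 0.05. Markers of extraocular fibres followed the labelled muscles: averaged over ages, 4 of 4 were higher in EOM. Among them Myh13, the extraocular myosin, was higher by 7.40 on the log2 scale (SE 0.20, adjusted p = 3.92e-19, limma). Of skeletal fibre genes, 14 of 14 tested were lower in EOM averaged over ages, against 20% of all genes tested. The EDL arrays at 6 months of replicates 1 and 2 had beta-actin 3' to 5' ratios of 2.54 and 3.54, against 1.13 to 2.12 on the other arrays. Replicate 1 of EDL at 30 months had the lowest median rank correlation with its group, 0.879. In pooled whole muscle, fewer cells of a type and less RNA per cell cannot be told apart.

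With the 3 ages averaged, 6 of the 7 genes were called between the muscles on their brightest probe set. Of all genes tested by that rule, 23.4% were called higher and 20% lower. Mt3, Gpx2, Gpx1, Gpx3 and Sod1 were higher in EOM and Sod2 was lower. Only Mt3 and Gpx2 were called at each single age, and Gpx2 was tested through its EOM signal alone. Averaged over ages, 8 of the 12 probe sets tested were called, 7 higher and 1 lower. Of all probe sets tested, 42.3% were called in this comparison, 22.3% higher and 20% lower. The median difference of the 12 was 0.39 on the log2 scale, against -0.06 for all probe sets tested. At 6, 18 and 30 months taken alone, 3, 6 and 4 of the 12 were called, all higher in EOM. Of all probe sets tested, 17.9%, 23.4% and 19.2% were called at these ages, and 11.6%, 14.1% and 11.4% were called higher. The arrays of the muscles did not overlap for 4, 5 and 4 of the 12 at these ages, against 20%, 26.2% and 22.2% of all probe sets.

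**Figure D1:**
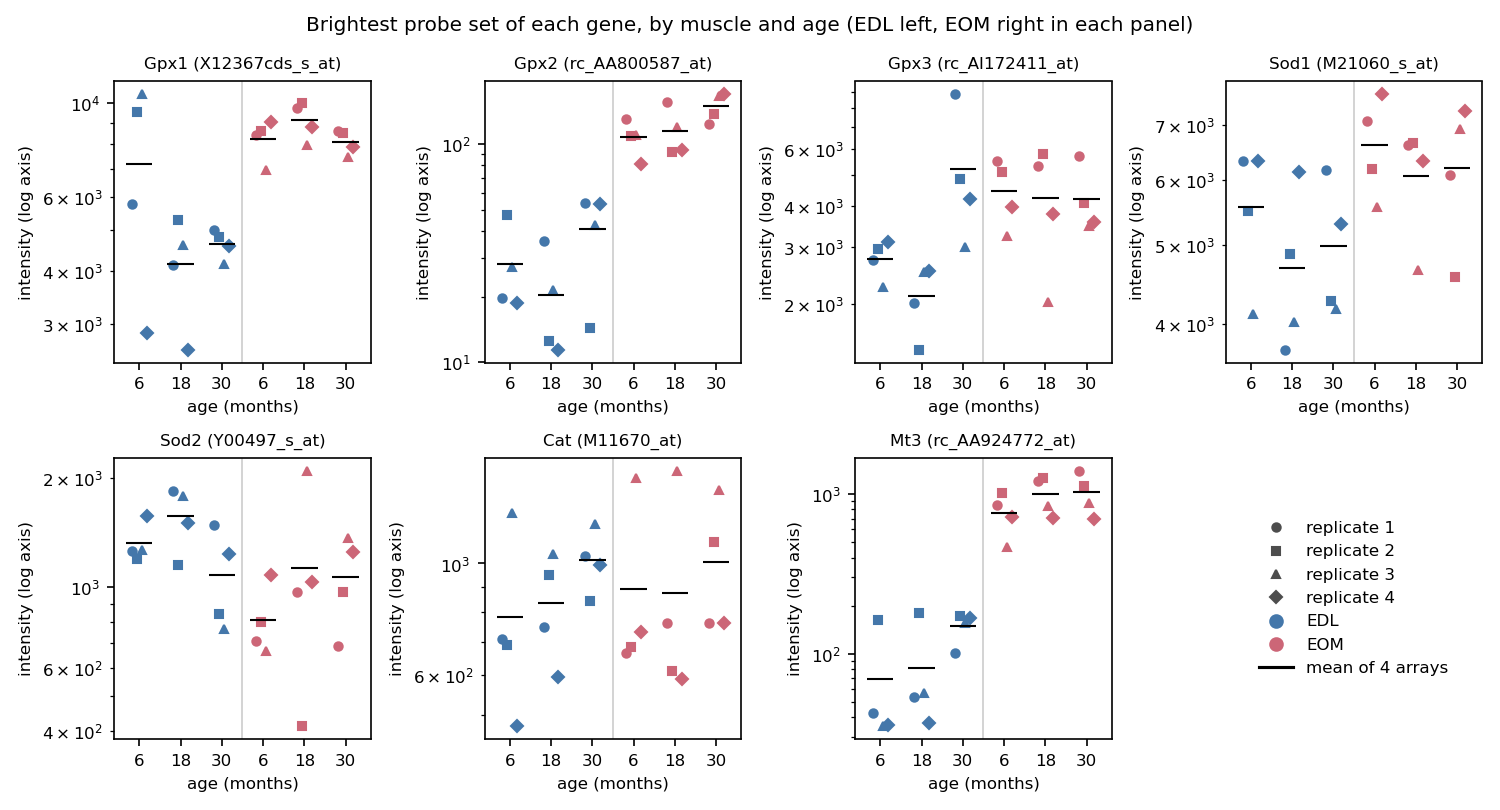
Intensity (arbitrary units, log axis) of the brightest probe set of each gene in every array, against age in months, with EDL in blue, EOM in red, a marker shape per replicate number and a bar at the mean of 4 arrays. Mt3 and Gpx2 are the genes whose EOM arrays all lie above all EDL arrays, Mt3 at 465.1 to 1396.6 in EOM and 35.1 to 179.9 in EDL.

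Mt3 had by far the widest range of the 7 genes, with group means on the log2 scale spanning 4.18 units. In EOM its intensities were 851.6, 1018.7, 465.1 and 720.2 at 6 months, 1204.5, 1255, 835.5 and 702.1 at 18 months, and 1396.6, 1116.5, 881.6 and 694.4 at 30 months (rc_AA924772_at). In EDL they were 42.6, 162.7, 35.1 and 36 at 6 months, 53.2, 179.9, 56.8 and 37 at 18 months, and 100.4, 172.7, 155 and 166.2 at 30 months. Every EOM array thus lay above every EDL array, and in EDL at the younger ages replicate 2 stood far above the other arrays. Mt3 in EDL was above the 40th percentile of its array on 1 of 4 arrays at 6 months, 1 of 4 at 18 months and 4 of 4 at 30 months, so the folds at the younger ages are set against dim EDL signals. At 6 months Mt3 in EOM exceeded that in EDL 13.5-fold (a log2 difference of 3.75 with SE 0.44, adjusted p = 9.84e-07 in limma), 14.5-fold at 18 months (log2 3.86, SE 0.44, adjusted p = 5.85e-07) and 6.8-fold at 30 months (log2 2.77, SE 0.44, adjusted p = 6.61e-05). Averaged over ages the difference was 3.46 (SE 0.26, adjusted p = 8.31e-11), or 11-fold. The smaller difference at 30 months was not itself called: the change of the muscle difference from 6 to 30 months was -0.99 (SE 0.63, adjusted p = 0.998) and from 18 to 30 months -1.09 (SE 0.63, adjusted p = 0.959).

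In the order of Mt3 levels the EOM groups came first, at geometric means of 988.4 at 30 months, 970.4 at 18 months and 734.2 at 6 months, and neighbouring groups among them overlapped. The EDL groups followed at 145.4 at 30 months, 66.97 at 18 months and 54.4 at 6 months, again with neighbours overlapping. The gap between EOM at 6 months and EDL at 30 months, 2.34 on the log2 scale, was the only break between neighbours with no overlap.

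Marker genes of some other cells were higher in EOM too. Of 11 tested genes of Schwann cells and nerve, 9 were higher and 1 lower averaged over ages, against 23.4% higher and 20% lower of all genes tested. The summed intensity of that list was 7487.4 to 9994.2 on EOM arrays and 2963.5 to 4310 on EDL arrays. Of 3 tested genes of astrocytes and retina, 0 were called between the muscles averaged over ages in limma and 0 had an unadjusted p under 0.05, and their sums overlapped, at 269.5 to 543 in EOM and 198.3 to 749.5 in EDL. No gene of either list was at the floor on all arrays. Higher counts in EOM were not particular to nerve: averaged over ages, 4 of 4 tested smooth muscle genes were higher, and 5 of 8 adipocyte genes were higher and 0 lower. The gene whose 6 group means followed those of Mt3 most closely among 3412 genes was S100b, a calcium-binding protein of glia and Schwann cells that is itself on the Schwann cell list, with a root mean square difference of 0.291 on the log2 scale. S100b averaged 501.8, 627 and 606.9 in EOM and 45.17, 97.32 and 147 in EDL at 6, 18 and 30 months. Next came Apod, a lipid-binding secreted protein, at 0.338, and Hsd11b1, which activates glucocorticoids, at 0.423. The part of these cells in the Mt3 difference was not tested.

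Gpx2 was dim throughout but separated the muscles on every array. Its intensities in EOM were 129.9, 109.5, 109.9 and 81.4 at 6 months, 156.2, 91.9, 119.9 and 93.9 at 18 months, and 124, 136.9, 167.1 and 169.4 at 30 months (rc_AA800587_at). In EDL they were 19.8, 47.4, 27.2 and 18.7 at 6 months, 35.9, 12.5, 21.5 and 11.4 at 18 months, and 53.9, 14.4, 42.6 and 53.2 at 30 months. The lowest EOM array lay above the highest EDL array. Gpx2 was above the 40th percentile on 4 of 4 arrays in each EOM group and on 0 of 4 in each EDL group. It was therefore tested through its EOM signal alone and had to differ, so its p values and its place among the probe sets called are a description. Of the EDL arrays, 3, 3 and 1 of 4 at the 3 ages were at the floor, the 25th percentile of the array to which lower values were raised, so the fold changes understate the difference. With the floor, Gpx2 in EOM exceeded that in EDL 3.42-fold at 6 months (a log2 difference of 1.77 with SE 0.31, adjusted p = 2.02e-04 in limma), 3.8-fold at 18 months (log2 1.93, adjusted p = 6.73e-05) and 3.51-fold at 30 months (log2 1.81, adjusted p = 1.68e-04). The average over ages was 1.84 (SE 0.18, adjusted p = 1.15e-08).

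Within each muscle the Gpx2 groups overlapped between ages, and the EOM groups (geometric means 106.2 to 148.1) were separated from the EDL groups (29.67 to 42.17) by 1.33 on the log2 scale. Genes of orbital gland and epithelium were also higher in EOM. Averaged over ages, 10 of 12 tested were higher and 0 lower, against 23.4% higher of all genes tested. The summed intensity of that list was 3852.7 to 34914.7 on EOM arrays. On EDL arrays it was 438.3 to 895 at 6 months, 560.7 to 1292.9 at 18 months and 3060.5 to 7635.7 at 30 months. Only the 30-month EDL sums overlapped those of EOM. The part of such cells in the Gpx2 difference was not tested. Closest to Gpx2 in pattern over the 6 group means were Tns3, a focal adhesion protein, with a root mean square difference of 0.148, Ica1, a secretory vesicle protein, at 0.18, and Cdh2, the adhesion molecule N-cadherin, at 0.186. In EDL the group means were 15, 7.9 and 6.175 for Cdh2 and 17.2, 18.32 and 36.85 for Ica1 at 6, 18 and 30 months, all but the last below the lowest array floor of 21.37. The likeness of Cdh2 and Ica1 to Gpx2 thus includes the shared floor in EDL. Tns3 was brighter there, averaging 109.5, 96.78 and 149.8 at 6, 18 and 30 months.

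Gpx1 was higher in EOM on both probe sets that were tested, with calls at 18 and 30 months and none at 6 months. On its brighter probe set (X12367cds_s_at), EOM arrays read 8401.2, 8577.5, 6969.5 and 9032.6 at 6 months, 9768.8, 10042.8, 7957.5 and 8809.6 at 18 months, and 8615, 8520.6, 7443.1 and 7890.1 at 30 months. EDL arrays read 5781.5, 9559.6, 10503.6 and 2864.5 at 6 months, 4150.5, 5303.3, 4627.4 and 2609.7 at 18 months, and 5018.1, 4822.5, 4159.4 and 4588.3 at 30 months. EDL at 6 months ran from 2864.5 to 10503.6, across the levels of both muscles, while at 18 and 30 months all EDL arrays lay below all EOM arrays. Gpx1 on this probe set was higher in EOM by 1.17 on the log2 scale at 18 months (SE 0.27, adjusted p = 0.00214, limma), by 0.81 at 30 months (SE 0.27, adjusted p = 0.0358) and by 0.36 at 6 months (SE 0.27, adjusted p = 0.409). The call at 30 months held in 25 of 36 alternative settings and was lost on leaving out any EDL array at 30 months or replicate 1, 2 or 4 of EOM at 30 months, with adjusted p values up to 0.0833.

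The other tested Gpx1 probe set (X07365_s_at) read 3654.6 to 7416.9 on EOM arrays over all ages. On EDL arrays it read 2202 to 7862.6 at 6 months, 1080.1 to 3232.6 at 18 months and 1908.9 to 2538.3 at 30 months. It too was called at 18 and 30 months and not at 6 months, with differences of 1.12 at 18 months (SE 0.32, adjusted p = 0.0117, limma), 1.34 at 30 months (adjusted p = 0.00379) and 0.51 at 6 months (adjusted p = 0.318). The call at 18 months was lost without replicate 4 of EDL at 18 months, where the difference was 0.83 (adjusted p = 0.0613). Averaged over ages, Gpx1 was higher in EOM by 0.99 (SE 0.18, adjusted p = 1.14e-04) and 0.78 (SE 0.15, adjusted p = 2.33e-04) on the respective probe sets. A further probe set of Gpx1 (M21210_i_at) read 5.7 to 12.2 on all 24 arrays, at the floor throughout, and was not tested. The change of the muscle difference with age was not called for Gpx1. On X12367cds_s_at it was 0.81 from 6 to 18 months and 0.44 from 6 to 30 months. On X07365_s_at it was 0.62 and 0.84 (all adjusted p = 0.998, limma). In the order of Gpx1 levels every group overlapped its neighbour.

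Transcripts of erythrocytes, cells rich in Gpx1, Sod1 and Cat, were also higher in EOM. Of 5 tested erythrocyte genes, 4 were higher and 0 lower averaged over ages, against 23.4% higher of all genes tested. Among them beta-globin (Hbb) was higher by 1.92 (SE 0.16, adjusted p = 9.61e-10, limma). The summed intensity of that list was 10746.6 to 34443.8 on EOM arrays and 3383.2 to 6619.2 on EDL arrays. The part of blood in the differences of Gpx1, Sod1 and Cat was not tested. The genes closest to Gpx1 in pattern were P3h4 at a root mean square difference of 0.074, the complement gene C1qb, made by macrophages, at 0.088, and Erp29, a chaperone of the endoplasmic reticulum, at 0.091. Of 5 tested macrophage genes, 2 were higher and 0 lower in EOM averaged over ages, against 23.4% higher of all genes tested, and 0, 1 and 0 were higher at 6, 18 and 30 months.

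Gpx3, the secreted peroxidase, was higher in EOM at 18 months on both of its probe sets and at 6 months on 1 of them, and was not called at 30 months. On the brighter probe set (rc_AI172411_at), EDL arrays read 2743.1, 2956.4, 2259.2 and 3102.7 at 6 months, 2016.8, 1449.8, 2512.1 and 2526.3 at 18 months, and 8832.8, 4861.5, 3001.7 and 4199.7 at 30 months. EOM arrays read 5508.3, 5111.7, 3242.9 and 3967.5 at 6 months, 5331.9, 5777.6, 2037.4 and 3779.2 at 18 months, and 5725.8, 4096.6, 3476.6 and 3570.4 at 30 months. EDL at 30 months lay within or above the range of the EOM arrays, with replicate 1 the highest of all 24 arrays. On the dimmer probe set (D00680_at), EDL arrays read 362.8, 310.5, 625.2 and 1032.2 at 6 months, 592.8, 451.6, 844.5 and 651.8 at 18 months, and 3419, 1295.8, 1100.8 and 1297.4 at 30 months, while EOM arrays read 918.4 to 1635.8 over all ages. Every EDL array at 30 months lay above every younger EDL array on this probe set, and replicate 1 was again the highest.

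**Figure D2:**
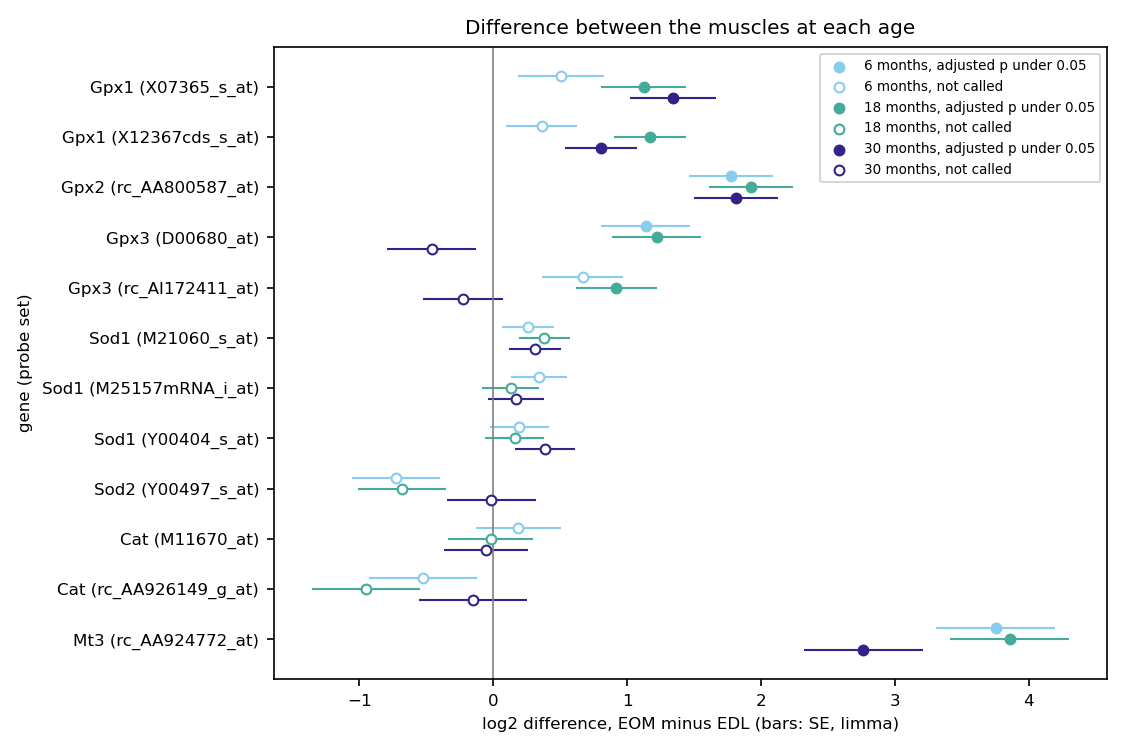
Difference between the muscles (log2, EOM minus EDL) at 6, 18 and 30 months for the 12 tested probe sets, with bars of 1 SE from limma and filled points where the adjusted p was under 0.05. Mt3 lies between 2.77 and 3.86 and Gpx2 between 1.77 and 1.93 at all ages, whereas both Gpx3 probe sets pass from above 0 at 6 and 18 months to -0.46 and -0.22 at 30 months.

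The Gpx3 difference between the muscles on D00680_at was 1.14 at 6 months (SE 0.33, adjusted p = 0.0175, limma) and 1.22 at 18 months (adjusted p = 0.00836), against -0.46 at 30 months (adjusted p = 0.382). On rc_AI172411_at it was 0.67 at 6 months (SE 0.30, adjusted p = 0.14), 0.92 at 18 months (adjusted p = 0.0284) and -0.22 at 30 months (adjusted p = 0.672). At 6 months the call rested on D00680_at alone, whose arrays overlapped, while those of rc_AI172411_at did not. The D00680_at call was lost without replicate 1 or 2 of EDL (adjusted p = 0.0693 and 0.08) or replicate 2 of EOM (0.0705) and in a fit on the groups compared alone (0.0601). Without both EDL arrays of high actin ratio its difference was 0.51 (adjusted p = 0.38). At 18 months the rc_AI172411_at call was lost on leaving out any of 4 single arrays, at adjusted p values up to 0.113. Averaged over ages, Gpx3 was higher in EOM by 0.63 (SE 0.19, adjusted p = 0.00962) and 0.45 (SE 0.17, adjusted p = 0.0385). The latter call held in 20 of 35 alternative settings and was lost on leaving out any of 11 single arrays, and the former was lost without both EDL arrays of high actin ratio (0.42, adjusted p = 0.0606).

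With age, Gpx3 rose in EDL and was the single gene of the 7 called between ages. From 6 to 30 months in EDL, 1 of the 12 probe sets was called, against 1.86% of all probe sets tested and 1.48% called higher: D00680_at rose 3.05-fold (log2 1.61, SE 0.33, adjusted p = 0.00661, limma). From 18 to 30 months 2 were called, against 1.55% and 1.52% higher, and both were Gpx3: D00680_at rose by 1.36 (SE 0.33, adjusted p = 0.0317) and rc_AI172411_at by 1.22 (SE 0.30, adjusted p = 0.034). The change of rc_AI172411_at from 6 to 30 months was 0.81 (SE 0.30, adjusted p = 0.25). In EOM the corresponding changes from 6 to 30 months were 0.01 and -0.08 (both adjusted p = 1). The difference between the muscles in the change from 6 to 30 months on D00680_at was -1.60 (SE 0.47, adjusted p = 0.283), and from 18 to 30 months -1.68 (SE 0.47, adjusted p = 0.196), so an unequal change was not called. These EDL changes share their 30-month arrays.

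The Gpx3 rise rested on few arrays. Without replicate 1 of EDL at 30 months, the change of D00680_at from 6 to 30 months was 1.24 (adjusted p = 0.0434, limma), and the changes from 18 to 30 months were 0.99 (adjusted p = 0.181) and 0.93 (adjusted p = 0.205). Both calls from 18 to 30 months were also lost on leaving out replicate 1, 2 or 4 of EDL at 18 months or replicate 2 at 30 months, and that of rc_AI172411_at without replicate 4 at 30 months (adjusted p = 0.0505 to 0.148). Without both 6-month EDL arrays of high actin ratio, which were also the lowest for D00680_at, the change from 6 to 30 months was 0.98 (adjusted p = 0.289). In a fit on the groups compared alone it was not called (adjusted p = 0.195). Of 12 tested genes of gland and epithelium, 3 were called higher from 6 to 30 months in EDL, namely Klk1, a tissue kallikrein of salivary and other glands (162.4 to 3509 on average), and the epithelial keratins Krt8 (19.05 to 129.3) and Krt18 (11.52 to 172.8). Of all genes tested, 1.35% were called higher. The summed intensity of that list was 438.3 to 895 in EDL at 6 months and 3060.5 to 7635.7 at 30 months, with no overlap. Much of the later sum was Klk1, which alone read 2219.9 to 6754.7 on the 30-month arrays. The adipocyte list had 1 of 8 tested genes called higher in EDL over that interval, with sums of 3588 to 5484.3 at 6 months and 3140.6 to 5853.5 at 30 months. The part of these cells in the Gpx3 rise was not tested.

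**Figure D3:**
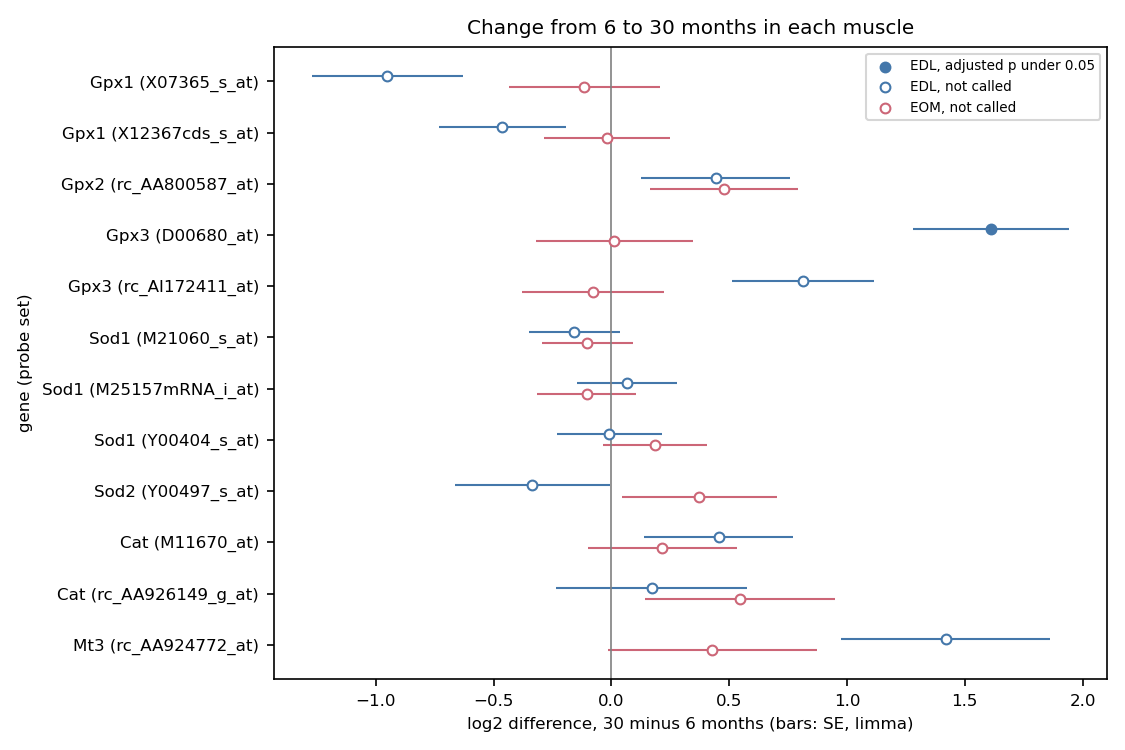
Change from 6 to 30 months (log2, 30 minus 6 months) in EDL (blue) and EOM (red) for the 12 tested probe sets, with bars of 1 SE from limma and filled points where the adjusted p was under 0.05. The D00680_at probe set of Gpx3 in EDL, at 1.61, is the single filled point.

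The order of Gpx3 levels on rc_AI172411_at ran from EDL at 30 months (geometric mean 4824) through the EOM groups (4363 at 6, 4131 at 30 and 3924 at 18 months) to EDL at 6 months (2746) and at 18 months (2076), with overlap between all neighbours. Closest to it in pattern were Sgk1, a kinase induced by glucocorticoids, at a root mean square difference of 0.085, and Nubpl, an assembly factor of respiratory complex I, and Srd5a3, a polyprenol reductase, both at 0.113. Sgk1 averaged 267.1, 239 and 531.1 in EDL and 449.6, 450.9 and 426.6 in EOM at 6, 18 and 30 months.

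Mt3 in EDL was also brighter at 30 months, but that change was not called. The change from 6 to 30 months was 1.42 (SE 0.44, adjusted p = 0.13, limma) and from 18 to 30 months 1.12 (SE 0.44, adjusted p = 0.375), and the highest younger array exceeded the lowest array at 30 months. Arrays of the same replicate number deviated together in EDL at 6 and 30 months, with correlations of 0.123 to 0.331. With the replicate number as a block, the adjusted p of Mt3 was 0.0205, so that 2 of the 12 probe sets were called, and 172 in place of 107 of all probe sets tested were called. It was also called without replicate 2 of EDL at 6 months (1.95, adjusted p = 0.00748), the array at 162.7, and without both arrays of high actin ratio (2.03, adjusted p = 0.0247). In EOM the change of Mt3 over the same interval was 0.43 (SE 0.44, adjusted p = 1). Gpx1 in EDL was lower at the older ages without a call, by -1.11 at 18 months (adjusted p = 0.202) and -0.95 at 30 months (adjusted p = 0.175) on X07365_s_at. Both Gpx1 probe sets were called lower at both ages once replicate 4 of EDL at 6 months was left out, with adjusted p of 0.0115 to 0.0222.

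The remaining comparisons of ages called 0 of the 12 probe sets in limma. From 6 to 18 months in EDL, 0.279% of all probe sets were called, and 2 of the 12 had an unadjusted p under 0.05, both of Gpx1, against 7.66% of all probe sets. In EOM, 0.174% of all probe sets were called from 6 to 18 months, 0.0348% from 6 to 30 months and 0.0174% from 18 to 30 months, and of the 12, 0, 0 and 1 had an unadjusted p under 0.05, against 3.97%, 2.3% and 2.37% of all probe sets. With the replicate block, which the correlations of same-numbered arrays also allow within EOM, 33 in place of 10 of all probe sets were called from 6 to 18 months and 3 in place of 1 from 18 to 30 months, and of the 12 none was. The comparisons of the age change between the muscles called 0 of the 12 as well, against 0%, 0.192% and 0.331% of all probe sets for 18 against 6, 30 against 6 and 30 against 18 months. At an unadjusted p under 0.05 there were 1, 2 and 2 of the 12, against 4.41%, 4.49% and 5.68% of all probe sets.

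Sod1, the cytosolic superoxide dismutase, differed little between the muscles. On its brightest probe set (M21060_s_at), EOM arrays read 7078.5, 6191.3, 5562 and 7641.7 at 6 months, 6617.5, 6656.7, 4653.8 and 6327 at 18 months, and 6089.1, 4563.9, 6926.3 and 7289.4 at 30 months. EDL arrays read 6330, 5500.2, 4119.4 and 6328.5 at 6 months, 3722.8, 4872.5, 4030.9 and 6132.1 at 18 months, and 6179.3, 4272.2, 4179 and 5309.5 at 30 months. The muscles overlapped at every age, and the 6 groups ranked by muscle, with the EOM groups (geometric means 6001 to 6570) above the EDL groups (4602 to 5489) and all neighbours overlapping. Averaged over ages, the EOM level of Sod1 was 1.25-fold that of EDL (a log2 difference of 0.32 with SE 0.11, adjusted p = 0.0237 in limma), a call lost when arrays were centred on their medians (0.27, adjusted p = 0.142) or without the arrays of replicate number 3 (0.27, adjusted p = 0.0627). The other probe sets of Sod1 gave 0.21 (M25157mRNA_i_at, SE 0.12, adjusted p = 0.165) and 0.25 (Y00404_s_at, SE 0.13, adjusted p = 0.122). At no single age was a Sod1 probe set called, although with array weights M21060_s_at was called at 18 months (0.47, adjusted p = 0.0496).

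Sod2, the mitochondrial superoxide dismutase, was the single gene of the 7 called lower in EOM. EOM arrays read 709.1, 800.6, 664.7 and 1077.7 at 6 months, 968, 412.8, 2096.7 and 1036.6 at 18 months, and 689.7, 971.3, 1367.4 and 1249 at 30 months (Y00497_s_at). EDL arrays read 1257.3, 1198.5, 1267.7 and 1573.2 at 6 months, 1847.6, 1148.1, 1781.9 and 1507.9 at 18 months, and 1481.7, 842.7, 764.8 and 1237.7 at 30 months. All EOM arrays lay below all EDL arrays at 6 months, and the muscles overlapped at 18 months, where EOM held both the lowest and the highest of the 24 arrays, and at 30 months. The difference was -0.72 at 6 months (SE 0.33, adjusted p = 0.145, limma), -0.68 at 18 months (adjusted p = 0.145) and -0.01 at 30 months (adjusted p = 0.986). At 6 months Sod2 was called in a fit on the groups compared alone (adjusted p = 0.0327). At 18 months it was called without replicate 3 of EOM at that age (-1.05, adjusted p = 0.0136), without the arrays of replicate number 3 in all groups (-0.98, adjusted p = 0.0403) and with array weights (-0.99, adjusted p = 0.0306). Averaged over ages it was -0.47 (SE 0.19, adjusted p = 0.049), and this call held in 14 of 35 alternative settings and was lost on leaving out any of 17 of the 24 single arrays. Fibre genes were lower in EOM too: the 14 skeletal fibre genes had a median difference of -0.57 averaged over ages, all called. The part of fibres in the Sod2 difference was not tested. The order of Sod2 levels ran from EDL at 18 months (geometric mean 1545) to EOM at 6 months (798.6) with overlap between all neighbours.

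Catalase gave a different picture on each of its tested probe sets and was called between the muscles on neither. On M11670_at the EOM arrays read 665, 683.7, 1474.8 and 732.8 at 6 months, 761.6, 613.4, 1526.9 and 589.3 at 18 months, and 762.1, 1102.1, 1396.1 and 761.8 at 30 months. EDL arrays read 707.4, 688, 1262 and 475.5 at 6 months, 746.9, 947.7, 1044.7 and 596.2 at 18 months, and 1034.6, 841.1, 1196.5 and 993.8 at 30 months. Replicate 3 was the highest array in all 6 groups. Averaged over ages the difference between the muscles was 0.04 (95% interval -0.34 to 0.42, adjusted p = 0.886, limma). On rc_AA926149_g_at it was -0.54 (95% interval -1.02 to -0.06, adjusted p = 0.0647), and it was called in 6 of 35 alternative settings, with adjusted p = 0.0382 after quantile normalisation. The third probe set of Cat (rc_AA926149_at) read 2.2 to 72.1 and was too dim to be tested. The group geometric means of M11670_at spanned 735.1 to 1009 with overlap between all neighbours.

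The arrays of replicate number 3 in EOM show how the Cat probe sets parted. On M11670_at they read 1474.8, 1526.9 and 1396.1 at 6, 18 and 30 months, each the highest of its group. On rc_AA926149_g_at the same arrays read 501.5, 211.9 and 1783.3, the lowest of the group at 6 and 18 months and the highest at 30 months. Of 5741 probe sets tested, 137 were highest in replicate 3 of all 6 groups, as M11670_at was, and 110 were lowest there. Sod1 on M25157mRNA_i_at was likewise highest in replicate 4 of all 6 groups, at 3800.2 to 4473.4 on those arrays, as were 83 probe sets. Mt3 in replicate 2 lay above its group mean in 6 of 6 groups, by 0.71 on the log2 scale on average. The labels give no meaning to the replicate numbers.

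**Figure D4:**
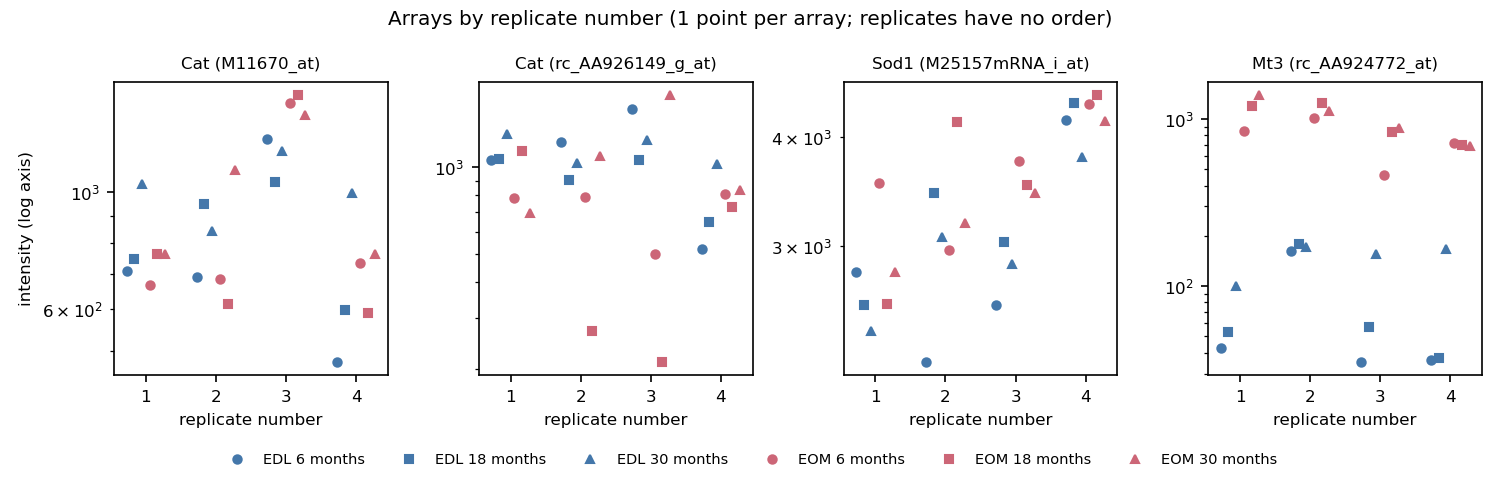
Intensity (arbitrary units, log axis) of 4 probe sets against replicate number, 1 point per array, with EDL in blue, EOM in red and a marker shape for each age. Cat on M11670_at is highest in replicate 3 of all 6 groups and Sod1 on M25157mRNA_i_at in replicate 4, whereas Cat on rc_AA926149_g_at shows no such order.

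The wider oxidant defence was read from a list of 73 further genes, of which 40 were on the array and 32 were tested, each by its brightest probe set. Averaged over ages, 10 were higher and 8 lower in EOM, against 23.4% higher and 20% lower of all genes tested, and the median difference was 0.09 on the log2 scale against -0.04 for all genes. Members of the list were called in both directions. Sod3, the extracellular superoxide dismutase, averaged 3232, 3983 and 3538 in EOM and 1282, 1254 and 1232 in EDL at 6, 18 and 30 months, a difference of 1.57 (SE 0.16, adjusted p = 2.09e-08, limma). Cyba, the p22phox subunit of the superoxide-producing NADPH oxidase, was higher by 2.31 (SE 0.21, adjusted p = 3.18e-09), at 382.4 to 509.4 in EOM group means and 61.73 to 165.6 in EDL. Xdh, xanthine dehydrogenase, another source of superoxide, was higher by 1.23 (SE 0.15, adjusted p = 2.86e-07). Cyba and Xdh thus belong to sources of superoxide and Sod3 to its removal outside the cell.

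Ucp2, a mitochondrial carrier, was higher in EOM by 1.03 (SE 0.15, adjusted p = 4.75e-06, limma), and Hmox1, the inducible haem oxygenase, by 1.01 (SE 0.16, adjusted p = 2.04e-05). Selenow, a small selenoprotein of muscle, was the gene lower by at least 1 log2 unit, with group means of 3965 to 4299 in EOM and 7291 to 9992 in EDL and a difference of -1.03 (SE 0.15, adjusted p = 3.21e-06). At 6, 18 and 30 months taken alone, 6, 6 and 7 of the 32 were higher and 3, 3 and 2 lower, against 12.2%, 15.2% and 12.2% higher and 6.43%, 9.04% and 8.01% lower of all genes tested. Of the 32, 0 were called in any comparison of ages within a muscle or of the age change between muscles in limma. At most 4 had an unadjusted p under 0.05, in EDL at 30 against 6 months, where 10.5% of all probe sets did.

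**Figure D5:**
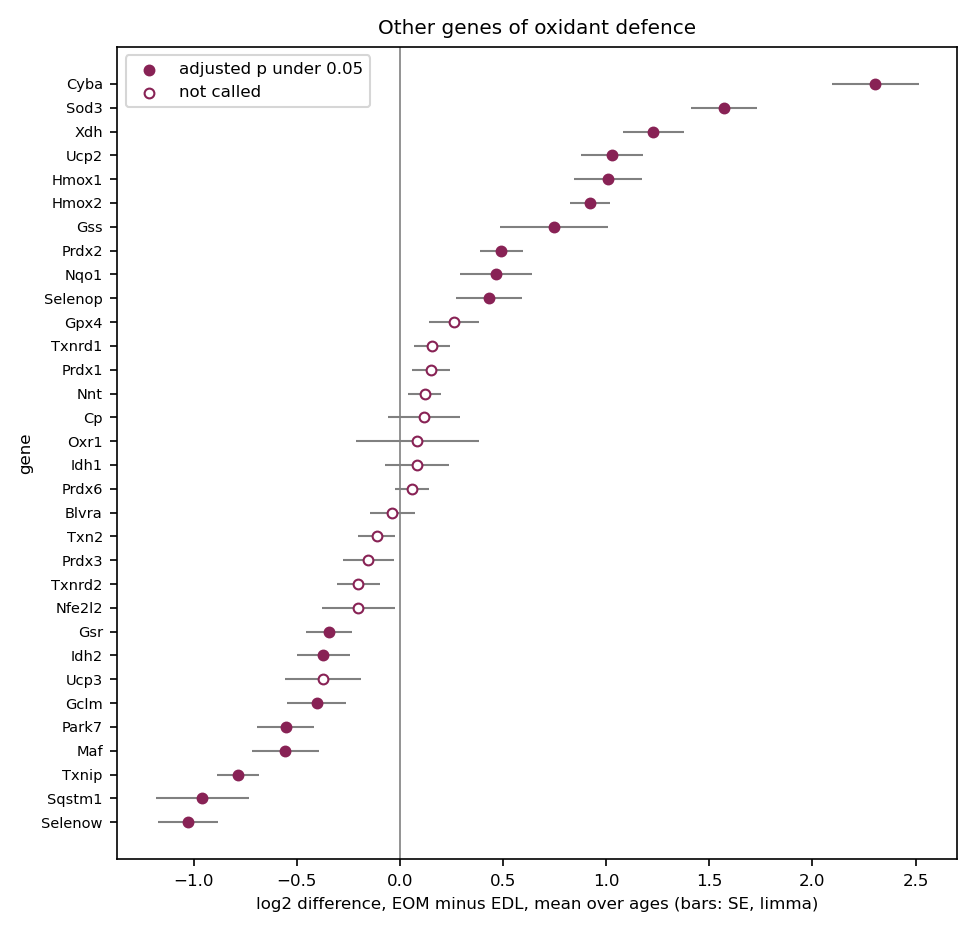
Difference between the muscles averaged over ages (log2, EOM minus EDL) for the 32 tested genes of the oxidant defence list, with bars of 1 SE from limma and filled points where the adjusted p was under 0.05. They run from Cyba at 2.31 to Selenow at -1.03, with 10 filled points above 0 and 8 below.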

How the data were processed

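RNA of EOM and EDL was measured on 24 arrays in 6 groups of 4, grouped by the sample titles. The authors deposited a linear intensity for each probe set on each array, made with MAS5 per the submitters' processing notes. Trimmed array means were 494.9 to 498 units, and no source used here gives the scaling target. The labels name a pair of dyes where the design text describes biotin, and each array was read as 1 colour. No detection call or scanner file was used. Precision is limited by the number of arrays, 4 per group.

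Here each intensity was raised to a floor at the 25th percentile of its array and taken to log2. Of 8799 rows, 59 controls were removed, and a probe set was tested if above the 40th percentile on at least 3 of 4 arrays of a group. A means model of 6 groups over all 24 arrays was fitted with limma 3.58.1 in R 4.3.3 (eBayes with trend, 18 residual degrees of freedom), with p adjusted over 5741 probe sets, and was tested on simulated data. Symbols come from the platform annotation, and 308 probe sets with several symbols were given no gene. The members and lists were chosen with earlier results of these data known. The p-values measure the spread between pools.

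All members are named. Of the oxidant defence list, genes called averaged over ages with a difference of at least 1 log2 unit were named. For members whose group means span at least 1 log2 unit, the 3 genes closest in root mean square over group means, each centred on its own mean, were named. Same-numbered arrays were correlated as deviations from group means: every pair was over 0.1 for the muscles at 6 months, EDL at 30 against 6 months and the comparisons within EOM, with no basis in the labels. Alternatives changed the scaling, floor, filter, variance model, array weights, replicate block, groups fitted and arrays used. Leaving out the 6-month EDL arrays of high actin ratio, and those of replicate number 3, was chosen after seeing the data.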

Additional observations from a re-analysis of the deposited data

Results flagged for a closer look

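Single arrays stood apart in 6 of 72 groups of 4 arrays, where the gap to the nearest array, as a share of the group's range, exceeded Dixon's critical value for 4 samples; chance gives about 1 in 20 groups, or 3.6 here. Gpx3 (D00680_at) read 3419 in replicate 1 of EDL at 30 months, against 1297 for the next array. Mt3 read 162.7 in replicate 2 of EDL at 6 months, against 42.6 for the next, and 179.9 in replicate 2 of EDL at 18 months, against 56.8. Cat in replicate 3 of EOM at 6 months was the highest of its group on M11670_at, at 1475 against 732.8, and the lowest on rc_AA926149_g_at, at 501.5 against 782.8. Sod1 (M21060_s_at) read 4654 in replicate 3 of EOM at 18 months, against 6327 for the next array above it.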

How the results depend on the processing

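No called difference changed sign under any setting run. Some values called under neither setting did, as Cat on M11670_at averaged over ages in 9 of 35 settings. Over 156 probe set comparisons, leaving out single arrays kept the side of the threshold in 3677 of 3744 values, with 54 calls lost and 13 gained, and the other settings in 1783 of 1820, with 28 lost and 9 gained. Counts of called probe sets of the 7 genes moved by over 1.5 times in these cases. For EDL at 30 against 18 months the count was 0 in place of 2 with arrays centred on their medians, with eBayes without trend, with array weights and in a fit on the groups compared. For EDL at 30 against 6 months it was 0 in the fit on the groups compared, with 31 of all probe sets called in place of 107. Averaged over ages it was 5 in place of 8 without both 6-month EDL arrays of high actin ratio, the calls lost being both of Gpx3 and that of Sod2. Smaller moves included 8 in place of 6 at 18 months with array weights, 3 in place of 4 at 30 months and 6 in place of 8 averaged over ages with median centring, no filter or eBayes without trend, and 9 averaged over ages after quantile normalisation. At 6 months the fit on the groups compared kept the count of 3, but with Sod2 in place of Gpx3. Leaving out single arrays gave 6 to 9 averaged over ages, 2 to 3, 5 to 7 and 3 to 4 at 6, 18 and 30 months, 0 to 2 for EDL at 18 against 6, 1 to 3 at 30 against 6 and 0 to 2 at 30 against 18 months, and 0 elsewhere. With the replicate block, 2 were called for EDL at 30 against 6 months. Sod1 was then also called averaged over ages on M25157mRNA_i_at (adjusted p = 0.0267, limma) and Y00404_s_at (0.027). Between the muscles, arrays of replicate 1 correlated at 0.062 at 18 months and 0.079 at 30 months, under the 0.1 that every pair exceeded at 6 months. The block changed no other call. Median centring moved the median of all probe sets for EDL at 30 against 6 months from 0.03 to -0.12, the calls from 85 higher and 22 lower to 55 and 26, and Gpx3 (D00680_at) from 1.61 to 1.47, still called (adjusted p = 0.0149). By the design text's rule of agreement in all array pairs and an average fold above 2, as far as intensities allow, 2, 5 and 3 were called between the muscles at 6, 18 and 30 months. In EDL, Gpx3 met this rule on D00680_at at 30 against 6 months and on both probe sets at 30 against 18 months. Dim signals limit Gpx2 in EDL and leave 1 probe set of Gpx1 and 1 of Cat untested. Causes of these shifts were not tested.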
